A study of Drosophila melanogaster with 8 samples.

Results

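The noncoding RNA genes that were expressed in sorted Drosophila brain neurons numbered 136, out of 2763 genes with a noncoding name and 17868 genes in all. They were chosen by name and by reads: a name starting with lncRNA or asRNA or holding a CR number, ribosomal, transfer, small nuclear, small nucleolar, micro and roX RNAs left out, and at least 20 reads in all 4 libraries of clock neurons or in all 4 libraries of all neurons. Of the 136 members, 72 reached the minimum in both genotypes, 26 in clock neurons only and 38 in all neurons only. A further 1434 candidates had no read in any library, and 1193 had reads without reaching the minimum.

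Clock neurons carried EGFP under the clk856 GAL4 driver (clk856 > EGFP) and all neurons carried it under the nSyb GAL4 driver (nSyb > EGFP), the flies being males about 2 weeks old, kept at 25°C in a 12:12 light-dark cycle, with no other allele or agent given. Cells pooled from several brains were sorted for GFP and their polyadenylated RNA was amplified with SMART-seq2. Each genotype had 2 libraries at Zeitgeber time 2 (ZT2, 2 h after lights on) and 2 at ZT14 (2 h after lights off). The study collected 2 sets of neurons from a dissociated sample, so that the p-values below measure only the spread between these libraries, which may in part be technical. An nSyb library holds neurons of every kind, clock neurons included, and fewer cells of a type cannot be told apart from less RNA per cell.

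Long noncoding RNAs are transcribed and often spliced and polyadenylated like mRNAs but encode no known protein. Some act in the nucleus as scaffolds: the heat shock RNA omega (Hsromega) gathers hnRNP proteins into omega speckles next to chromatin and accumulates at its own locus after stress. Antisense RNAs are read from the strand opposite a gene, and hairpin RNAs are folded transcripts that are cut into endogenous siRNAs. For most genes known by a CR number no role is known.

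The libraries held 4823985 to 8439193 reads on genes in clk856 and 7970236 to 8449829 in nSyb, so that 20 reads stood for 1.07 to 1.99 RPM (reads scaled by the authors to a common library total) and 3 reads, taken as the limit of detection, for 0.161 to 0.299 RPM. These limits cover counting error only. All 6 clock neuron markers were higher in clk856. Summed glial markers were 36.3 to 68.4 RPM in clk856 and 72.2 to 187 RPM in nSyb. Of 5 glial markers tested, edgeR called 1, Eaat1, which was lower in clk856 (adjusted p = 0.0456). The means of repo (2.53 RPM in clk856, 1.62 in nSyb) and moody (1.34 and 0.11 RPM) went the other way. Summed photoreceptor markers were 0.07 to 5.44 and 1.53 to 6.80 RPM, and summed fat body markers 2.89 to 21.3 and 6.41 to 19.2 RPM. At 0 in every library were 2 of the 6 photoreceptor and 2 of the 4 fat body markers. The photoreceptor marker inaD was lower in clk856 (0.0 against 5.06 RPM, edgeR adjusted p = 0.00668). In contrast, ninaE, Rh4 and trp were at 0.0 RPM in nSyb and had means of 0.19 to 1.17 RPM in clk856. Summed hemocyte markers were 0.0 to 13.7 and 0.0 to 0.05 RPM, with 1 of the 4 at 0 in every library, and summed muscle markers 0.0 to 1.54 and 0.0 to 0.05 RPM. The part of these cells in the results below was not tested. The spread between libraries was larger in nSyb, with a biological coefficient of variation of 0.824 against 0.364 in clk856.

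The label long noncoding RNA held for most members. In the Ensembl annotation of dm6, 124 were noncoding RNA genes and 12 were pseudogenes, and 1 of the noncoding RNA genes was a hairpin RNA. Exons covered a median of 1231.5 bases (201 to 21710) and 68 members had 1 exon block. Of the 136 members, 68 shared no gene body with a protein-coding gene, 35 overlapped coding exons on the opposite strand, 10 overlapped them on the same strand, and 23 lay inside or across a gene body without touching its exons, 18 of these on the opposite strand. For 79 members no exon base lay inside another exon, whereas for 13 at least 50% did. The library kit does not mark strand and the counting strand is not given in the sources used here, so that reads of such an overlap cannot be assigned to 1 strand.

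The members were unevenly spread over the chromosomes. The small chromosome 4 held 11 of the 136 members but only 31 of the 2763 candidates, so that 35.5% of its candidates reached the minimum, against 4.92% over all chromosomes and 3.9% to 6.69% on the X chromosome and the arms of chromosomes 2 and 3. None of the 89 candidates on the Y chromosome reached it. Chromosome 4 also stood highest for genes of all kinds, with 73.5% of the genes on chromosome 4 at the minimum in either genotype and 38.7% of all placed genes. The members on chromosome 4 included 6 antisense RNAs, to ci (the Hedgehog pathway transcription factor), dati, unc-13 (which primes synaptic vesicles), fuss, CG11077 and bip2. Over all 11 members on chromosome 4, mean levels ran from 0.598 RPM in clk856 for CR44441 (5.65 RPM in nSyb) to 72.5 RPM in clk856 and 74.2 RPM in nSyb for CR44024.

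**Figure D1:**
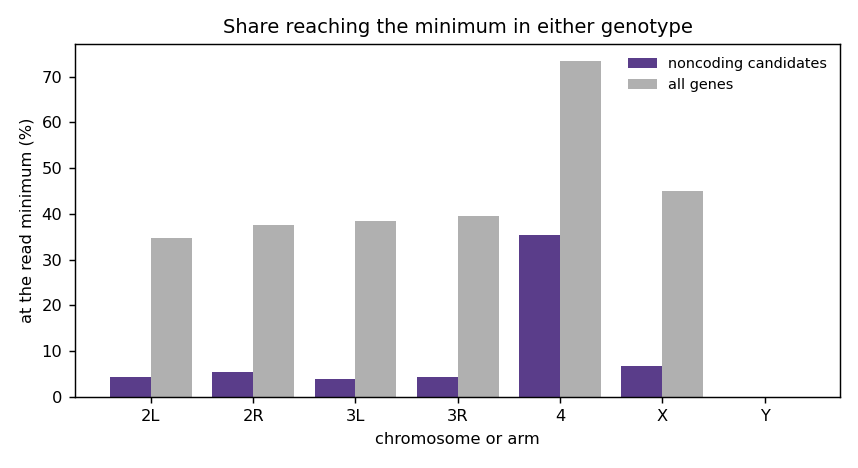
Share of noncoding candidates (purple) and of all genes (grey) that had at least 20 reads in all 4 libraries of either genotype, in percent, by chromosome or arm. Chromosome 4 stands highest for both, at 35.5% of its noncoding candidates and 73.5% of its genes, and the Y chromosome at 0 for both.

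The members took 0.925% to 1.15% of the reads on genes in the clk856 libraries and 1.30% to 1.37% in the nSyb libraries. Reads outside annotated genes also took a smaller share in clk856 (5.53% to 6.21%) than in nSyb (7.55% to 8.94%). Hsromega alone gave 37.0% to 42.2% of the members' reads in clk856 and 43.4% to 47.8% in nSyb, and Hsromega, CR42862, noe and CR31451 together gave 70.2% to 75.0%. The remaining members were far less abundant. The median of the mean levels was 10.04 RPM in clk856 and 14.1 RPM in nSyb for the 72 members reached in both, 3.64 RPM in clk856 for those reached there only and 4.58 RPM in nSyb for those reached there only. Per kilobase of exon the order differed: noe was first in both genotypes, at 713 RPM per kilobase in clk856 and 424 in nSyb, whereas Hsromega, whose annotated exon is 21710 bases long, stood at 93.3 and 130 RPM per kilobase.

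Most expressed candidates were caught in few libraries. In clk856, 325 candidates had 20 reads in any library, and 98 of them (30.2%) had 20 reads in all 4 libraries, while 128 (39.4%) had them in 1 library only. In nSyb, 110 candidates (21.5% of those with 20 reads in any library) reached the minimum in all 4 libraries and 243 (47.6%) in 1 only. Of all other genes, 81.4% in clk856 and 73.3% in nSyb did so in all 4 libraries. These shares follow from the reads that also chose the members and are given as a description.

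**Figure D2:**
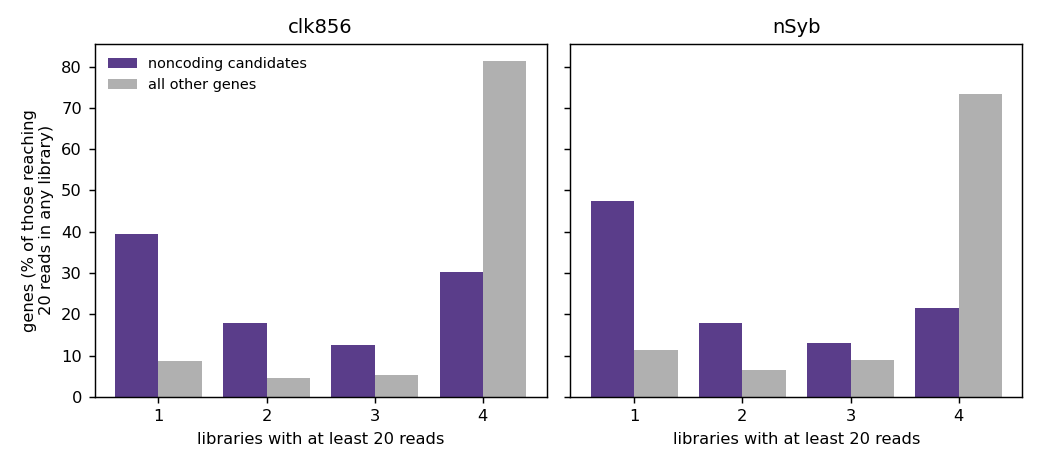
Number of libraries (1 to 4) in which a gene had at least 20 reads, as a percentage of the genes with 20 reads in any library of that genotype, for noncoding candidates (purple) and all other genes (grey). Candidates were most often at the minimum in 1 library (39.4% in clk856, 47.6% in nSyb), other genes in all 4.

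Among the 72 members reached in both genotypes, the highest library of a genotype was a median of 1.91 times the lowest in clk856 and 2.36 times in nSyb, against 1.47 and 1.88 times for the 5785 other genes with 20 reads in all 8 libraries. A range of 4-fold or more was found for 5 of the 72 members (6.94%) in clk856 and for 18 (25.0%) in nSyb, against 1.88% and 12.2% of the other genes. The part of the members' read depth in this spread was not tested.

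Clock neurons were first compared with all neurons. Of the 72 members reached in both genotypes, 11 (15.3%) were called at an adjusted p under 0.05 by edgeR's quasi-likelihood test, 3 higher and 8 lower in clk856. The background was 17.0% of all 7784 genes tested (10.3% higher, 6.69% lower) and 20.2% of the 5857 genes with 20 reads in all 8 libraries (11.9% higher, 8.37% lower), so that the members were called about as often as genes at large. An unadjusted p under 0.05 was found for 18 of the 72, against 29.6% of all genes. Their direction was less even. The median log2 fold change of the 72 members was -0.44, and 56 of the 72 were negative, whereas the median was -0.06 over the 5857 genes and -0.01 over all genes tested. Over 15 alternative settings the members' median lay between -0.57 and -0.39, with 52 to 59 of 72 negative. The members and the 5857 genes were both chosen by reads in these same libraries, and they were not matched in level. The part of the minimum and of level in this direction, and in the overlaps given next, was not tested.

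The libraries of the genotypes did not overlap in RPM for 20 of the 72 members, against 28.4% of the 5857 genes. The clk856 libraries lay below nSyb in 18 of the 72 (25.0%, against 14.6% of the 5857 genes) and above it in 2 of the 72 (2.78%, against 13.8%). Among the 72, the 51 other long noncoding RNAs held 10 of the 11 calls and had a median log2 fold change of -0.43. The 9 antisense RNAs had a median of -0.67 and 1 call. The 11 pseudogenes had a median of -0.44 and no call by edgeR or DESeq2, with 0 and 2 at an unadjusted p under 0.05 and a smallest edgeR adjusted p of 0.195. When the time points were tested apart, with 2 libraries against 2, edgeR called none of the members at ZT2, where 10 had an unadjusted p under 0.05 and 0.1% of 7998 genes were called, and called CR30055 alone at ZT14, where 4.18% of 8140 genes were called.

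**Figure D3:**
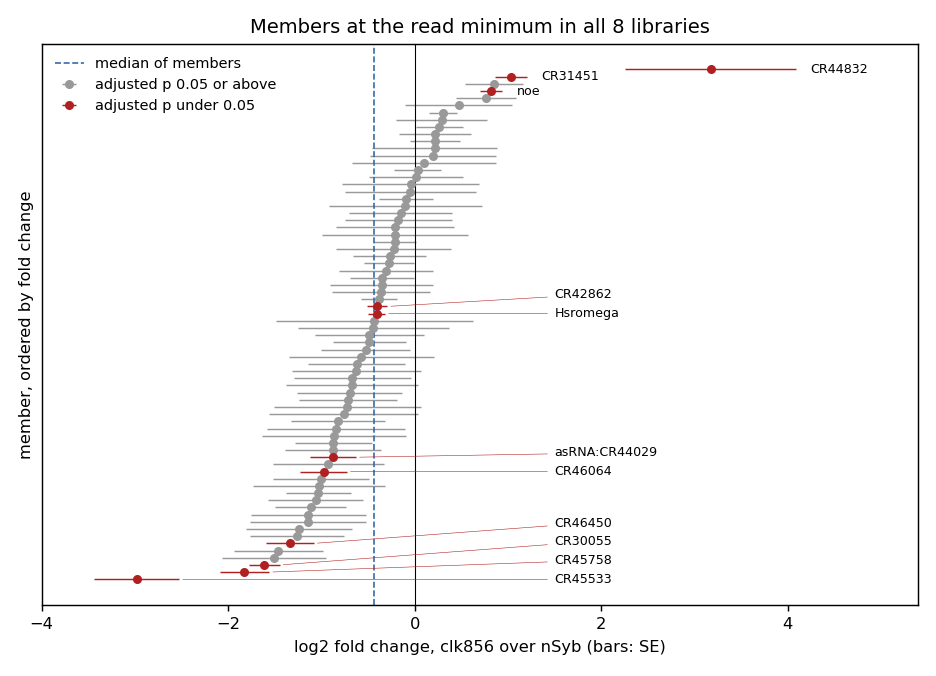
Log2 fold change of clk856 over nSyb (x axis) for the 72 members with at least 20 reads in all 8 libraries, in order of fold change, with standard errors as bars and the 11 called members in red with their names. Of the 72 points, 56 lie below 0, and the dashed line marks the median of -0.44.

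Values below are given in the order ZT2 replicates 1 and 2, then ZT14 replicates 1 and 2. Hsromega (3R:21296127-21317836, no coding gene body shared) was at 2088, 2030, 2291 and 1691 RPM in clk856 and at 2987, 2862, 2618 and 2819 RPM in nSyb. The genotypes did not overlap, with the 4 clk856 libraries the lower ones. The fall was small but called by edgeR (log2 fold change -0.41, SE 0.09, adjusted p = 0.0120, lower in 4 of 4 libraries).

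Of 10 proteins known to associate with Hsromega in omega speckles, edgeR called 2 lower and none higher in clk856, near the background of 17.0% of all genes tested, with a median log2 fold change of -0.27. An unadjusted p under 0.05 by edgeR was found for 6 of them, against 29.6% of all genes. DESeq2 called 2 higher and 4 lower, against 27.3% of all genes called in either direction. Pep, a zinc finger protein of nuclear hnRNP complexes, fell from 464 ± 30.5 RPM in nSyb to 239.7 ± 31.3 RPM in clk856 (SD, n = 4 libraries each, log2 fold change -0.88, edgeR adjusted p = 4.9e-04). Hrb98DE, an hnRNP A1 homolog, fell from 337 ± 25.9 to 237 ± 6.99 RPM (log2 fold change -0.44, edgeR adjusted p = 0.00576). TBPH, the TDP-43 homolog, did not pass (88.4 ± 10.2 RPM in clk856 and 142 ± 34.2 RPM in nSyb, edgeR adjusted p = 0.0503), nor did Hrb87F, another hnRNP A1 homolog, at 52.1 ± 5.88 and 29.0 ± 11.8 RPM (adjusted p = 0.0634). Of 11 subunits of the RNA exosome, which degrades noncoding transcripts in the nucleus, edgeR and DESeq2 called none, with 0 and 1 at an unadjusted p under 0.05 (background called by edgeR 17.0%, median log2 fold change 0.29).

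The gene noe, described as a noncoding RNA of the central nervous system, lay within the body of blot on the same strand without touching its exons (3L:17400272-17401348). It was at 729.8, 943, 777 and 619.7 RPM in clk856 and at 442, 436, 493 and 456 RPM in nSyb. All clk856 libraries were above all nSyb libraries (log2 fold change 0.82, SE 0.12, edgeR adjusted p = 0.00162). Its host blot, at 1.75 ± 2.98 RPM in clk856 and 2.41 ± 2.31 RPM in nSyb, was not called (edgeR adjusted p = 0.916).

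CR31451 (3R:23983503-23985065) stood 148 bases from CG13603. It was at 356, 432, 319 and 245 RPM in clk856 and at 146, 181, 188 and 179.5 RPM in nSyb, again without overlap, and rose by a log2 fold change of 1.03 (SE 0.17, edgeR adjusted p = 0.00294). CG13603 was at 82.0 ± 10.4 and 109 ± 18.1 RPM and was not called (edgeR adjusted p = 0.169).

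CR44832 (X:5790952-5791536) had the largest rise and the widest spread of the called members. It was at 205, 48.4, 378 and 107 RPM in clk856 and at 63.6, 8.21, 11.4 and 3.18 RPM in nSyb. The genotypes overlapped, since the first nSyb library was above the lowest clk856 library (log2 fold change 3.17, SE 0.92, edgeR adjusted p = 0.0396). Leaving out any 1 of 6 libraries (clk856 ZT2 replicate 1, clk856 ZT14 replicates 1 and 2, nSyb ZT2 replicate 2 or nSyb ZT14 replicates 1 and 2) ended its call, with edgeR adjusted p values of 0.0571 to 0.108, as did time as a covariate (0.0549). The log2 fold change was 2.56 without clk856 ZT14 replicate 1, 1.92 at ZT2 alone and 5.14 at ZT14 alone. Its nearest coding gene, CG15767, had no read in any library.

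CR30055 (2R:12589239-12591395) lay within the body of Sin3A, the scaffold of a histone deacetylase corepressor, on the opposite strand and outside its exons. It was at 24.6, 24.2, 26.7 and 24.2 RPM in clk856 and at 71.3, 72.5, 95.2 and 80.6 RPM in nSyb. The clk856 libraries lay within a few RPM of each other and far below all nSyb libraries (log2 fold change -1.61, SE 0.16, edgeR adjusted p = 1.6e-04). Sin3A was not called, at 88.5 ± 13.3 and 71.1 ± 30.9 RPM (edgeR adjusted p = 0.438).

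CR45533 (X:7445387-7450119) fell the most. It was at 3.65, 3.69, 5.46 and 7.07 RPM in clk856 and at 24.5, 52.7, 21.6 and 65.6 RPM in nSyb. Even the highest clk856 library was below the lowest nSyb library (log2 fold change -2.98, SE 0.45, edgeR adjusted p = 0.00172).

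CR45758 (3L:22960930-22961668) was at 12.3, 14.7, 26.7 and 16.4 RPM in clk856 and at 60.1, 58.2, 80.8 and 60.8 RPM in nSyb, with no overlap (log2 fold change -1.83, SE 0.27, edgeR adjusted p = 0.00139). CR46450 (2L:23176238-23177906) was at 25.8, 36.1, 26.3 and 16.6 RPM in clk856 and at 84.0, 68.9, 53.0 and 71.7 RPM in nSyb, also without overlap (log2 fold change -1.34, SE 0.25, edgeR adjusted p = 0.0060). Both lay apart from coding gene bodies, and all of their clk856 libraries were the lower ones.

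CR42862 (3L:224106-230964), whose exons overlap CG33229 on the same strand over 4.49% of their length, was at 711, 704, 511.02 and 674 RPM in clk856 and at 924, 817, 934 and 929.7 RPM in nSyb. The genotypes did not overlap, with clk856 lower (log2 fold change -0.40, SE 0.11, edgeR adjusted p = 0.0289). CG33229 itself was at 50.9 ± 5.0 and 52.9 ± 12.5 RPM. Without clk856 ZT14 replicate 2, nSyb ZT2 replicate 1 or either nSyb ZT14 library the adjusted p of CR42862 was 0.0552 to 0.0673.

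CR46064 (2R:4782892-4785543) was at 18.1, 23.7, 25.0 and 15.6 RPM in clk856 and at 55.4, 41.9, 33.1 and 39.97 RPM in nSyb. It shared no body with a protein-coding gene, but 27.7% of its exon bases lie in other exons. All clk856 libraries were the lower ones (log2 fold change -0.98, SE 0.25, edgeR adjusted p = 0.0234). Its call ended without clk856 ZT2 replicate 1, clk856 ZT14 replicate 2 or nSyb ZT2 replicate 1, at adjusted p values of 0.0535 to 0.0745.

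The antisense RNA CR44029 (chromosome 4, 879374-884752) overlaps exons of unc-13 on the opposite strand over 13.1% of its exon. It was at 18.6, 25.9, 18.8 and 16.4 RPM in clk856 and at 38.9, 40.1, 45.2 and 29.1 RPM in nSyb, without overlap (log2 fold change -0.88, SE 0.25, edgeR adjusted p = 0.0365). unc-13 was also lower in clk856, at 725 ± 65.4 against 1144 ± 86.7 RPM (log2 fold change -0.59, edgeR adjusted p = 0.00149). The call of CR44029 was lost with 10 of 15 alternatives, among them leaving out clk856 ZT2 replicate 1, either clk856 ZT14 library, either nSyb ZT2 library or nSyb ZT14 replicate 1 (adjusted p of 0.0553 to 0.109).

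**Figure D4:**
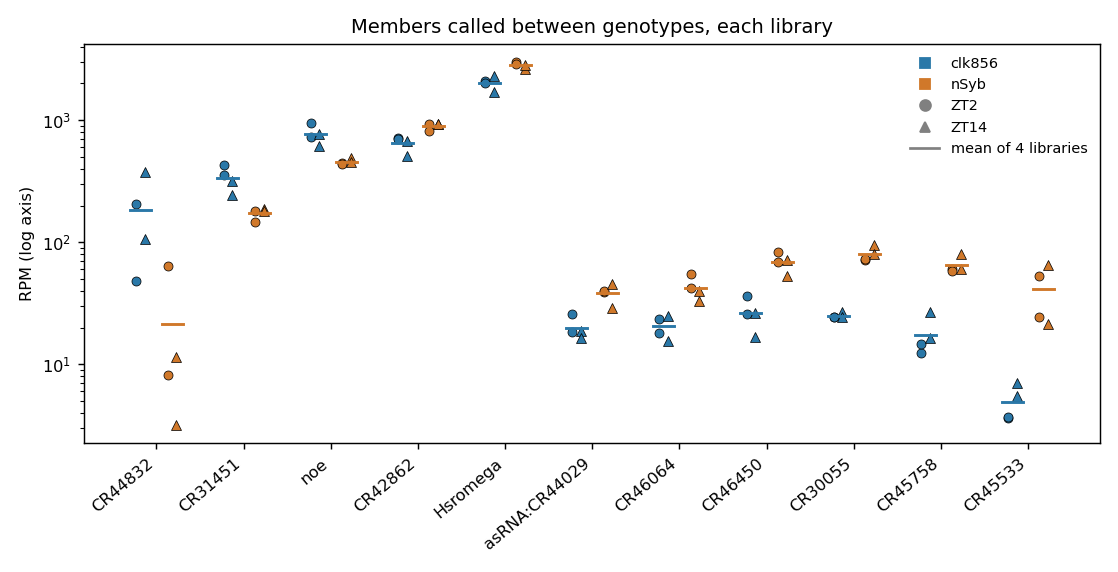
RPM (log axis) in each of the 8 libraries for the 11 members called between genotypes, ordered by fold change, with clk856 in blue, nSyb in orange, circles for ZT2, triangles for ZT14 and lines for the mean of 4 libraries. CR44832 is the only one of the 11 whose genotypes overlap, and the clk856 libraries of CR30055 lie closest together.

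Other abundant members were not called by edgeR in the comparison of all 8 libraries. The hairpin RNA CR18854, a source of endogenous siRNAs, was at 83.1 ± 9.24 RPM in clk856 and 70.7 ± 7.52 RPM in nSyb (log2 fold change 0.30, edgeR adjusted p = 0.220), with overlapping libraries. CR44024 was at 72.5 ± 21.4 and 74.2 ± 17.2 RPM (edgeR adjusted p = 0.951), CR42549, which overlaps mura on the same strand, at 41.5 ± 11.2 and 50.6 ± 7.92 RPM (adjusted p = 0.601), and CR46348 at 40.7 ± 5.82 and 55.7 ± 9.37 RPM (adjusted p = 0.208). CR44043, within the body of l(2)41Ab, was at 42.5 ± 11 and 24.7 ± 9.63 RPM (edgeR adjusted p = 0.0903; 0.0208 without nSyb ZT2 replicate 1, and 0.0267 by DESeq2), and CR44922 at 41.1 ± 18.4 and 25.3 ± 5.18 RPM (adjusted p = 0.140).

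The fold changes of members were set beside those of their overlapping, host or nearest coding gene. Over the 53 pairs in which both were tested, Pearson's r was 0.14 and Spearman's rho was 0.14 across genes, which are not independent replicates and were measured in the same libraries. For the 15 pairs that shared exon bases r was 0.55 and rho was 0.55, and for the 10 pairs that shared a gene body only r was 0.19 and rho was 0.03. For the 20 pairs without a shared gene body but within 1000 bases r was -0.14 and rho was -0.31, and for the 8 pairs farther apart r was 0.51 and rho was 0.60. The fold changes had the same sign in 22 of the 53 pairs and in 7 of the 15 that shared exon bases. In 12 of the 53 pairs the coding gene was called, and in 1 of them, CR44029 with unc-13, the member was called too. Of all genes tested 17.0% were called by edgeR, and of the 72 members 15.3%. The part of the shared exon bases in these values was not tested.

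The 64 members that reached the minimum in 1 genotype only were chosen by that difference, so their values are a description with no test. Of the 26 reached in clk856 only, 24 had an nSyb library with 20 reads or more, 19 had an nSyb library at 0, and 18 had both, so that most were present in some nSyb libraries and missing from others. Of the 38 reached in nSyb only, 29 had a clk856 library with 20 reads or more, 9 had a clk856 library at 0, and 3 had both. Over genes of all kinds, 7937 to 8400 had reads in an nSyb library and 8939 to 9991 in a clk856 library. The part of this difference in the members' missing reads was not tested. The genotypes did not overlap for 9 of the 26 (background 20.1% of all genes reached in clk856 only) and for 18 of the 38 (background 47.4%). The 38 held 14 antisense RNAs and no pseudogene, the 26 held 4 and 1.

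CR44127 (2R:5967397-5967746) had 78, 54, 62 and 20 reads in clk856 and no read in any nSyb library, which held for no other member of this kind. Against a limit of 3 reads per library, which covers counting error only, its mean level in clk856 was at least 23.1-fold higher. This bound leaves out the spread between nSyb libraries, where 18 of the 26 members had both a 0 and a library with 20 reads or more. The transcript of the alphagamma element, CR32865, comes from the heat shock locus at 87C and stood 7560 bases from Hsp70Ba. It had 84, 74, 63 and 62 reads in clk856 and 18, 14, 18 and 13 in nSyb, which is 5.15 ± 1.51 against 0.878 ± 0.171 RPM. Hsp70Ba, an inducible heat shock chaperone with near-identical copies, was at 9.42 ± 2.43 RPM in clk856 and 2.11 ± 0.320 RPM in nSyb (log2 fold change 2.22, edgeR adjusted p = 0.0353).

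Among the other members reached in clk856 only, CR45409 had 127, 61, 43 and 69 reads in clk856 and 0, 22, 15 and 2 in nSyb, and CR46483 had 141, 47, 106 and 127 in clk856 and 7, 0, 18 and 60 in nSyb. The antisense RNA CR43464, opposite CG33543, had 83, 55, 55 and 61 reads in clk856 and 0, 0, 17 and 22 in nSyb. The antisense RNA CR43481, opposite the small heat shock gene Hsp67Ba, had 58, 51, 74 and 56 reads in clk856 and 0, 0, 49 and 1 in nSyb. The antisense RNA CR33945, opposite betaGlu, was present in all clk856 libraries (57, 51, 88 and 96 reads) and, in nSyb, gave 142 reads in the first library and 1, 1 and 0 in the others.

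On the nSyb side, the antisense RNA CR42254, opposite the insulator protein gene BEAF-32, had 212, 315, 537 and 611 reads in nSyb and 8, 53, 22 and 23 in clk856. BEAF-32 was itself lower in clk856, at 44.6 ± 4.02 against 84.2 ± 36.6 RPM (log2 fold change -0.85, edgeR adjusted p = 0.0483), and 34.8% of the exon bases of CR42254 lie in other exons. The antisense RNA CR45600, opposite CG3984, had 349, 92, 190 and 27 reads in nSyb and 3, 4, 1 and 2 in clk856. No read was counted for CG3984 in any library. However, 63.7% of the exon bases of CR45600 lie in other exons, where reads cannot be assigned to 1 strand. The antisense RNA CR45621, opposite Fpgs, had 183, 51, 241 and 221 reads in nSyb and 0, 11, 1 and 0 in clk856. CR45531, within the body of CG14434, had 140, 114, 53 and 128 reads in nSyb and 25, 0, 1 and 0 in clk856, and the antisense RNA CR44291, opposite CG31460, had 48, 169, 43 and 103 against 0, 0, 1 and 11. Each of these had all nSyb libraries above all clk856 libraries.

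**Figure D5:**
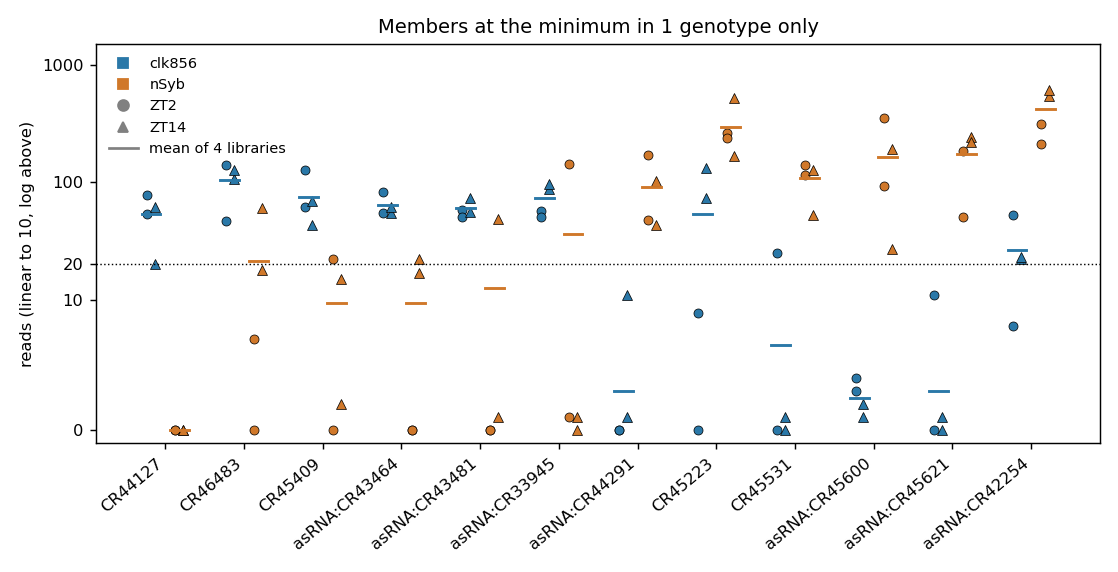
Reads in each of the 8 libraries (linear up to 10, logarithmic above) for the 12 members reached in 1 genotype only that differed most, with clk856 in blue, nSyb in orange, circles for ZT2, triangles for ZT14, lines for the mean of 4 libraries and a dotted line at the minimum of 20 reads. CR44127 has no read in nSyb, and CR33945 has 142 reads in 1 nSyb library and at most 1 in the others.

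The minimum cut through a range of similar values. Just inside it in clk856 were CR44127, with a lowest library of 20 reads, and CR45180 (52, 54, 20 and 46 reads); just outside were CR44206 (31, 22, 19 and 22 reads) and CR44914 (35, 19, 19 and 34 reads), the latter a member through nSyb. Just inside it in nSyb were CR44717 (94, 20, 37 and 41 reads) and CR45659 (38, 23, 238 and 20 reads), and just outside were CR43276 (19, 66, 19 and 71 reads) and CR46405 (39, 74, 41 and 19 reads).

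The time points were then compared. The choice of members did not compare them, but it was not independent of them. It asked for the minimum of reads in every library of a genotype, at ZT2 and at ZT14. An RNA under the minimum at either time point of a genotype could not be a member through that genotype. Strong time differences were thus selected against, and the part of this in the calls below was not tested. In clk856, edgeR called none of the 126 members tested between ZT14 and ZT2 (smallest adjusted p = 0.631), against 0.0244% of 8188 genes. An unadjusted p under 0.05 was found for 6 members, against 6.77% of all genes, and DESeq2 called 2 members, CR44024 and CR45223, and 1.04% of all genes. In nSyb, edgeR and DESeq2 called none of 130 members (2.92% of all genes by DESeq2), none had an unadjusted p under 0.05 by edgeR, and the background was 0.0% called and 3.95% with an unadjusted p under 0.05. For the difference of the time effects between genotypes, edgeR and DESeq2 called none of 136 members (2.16% of all genes by DESeq2), 6 had an unadjusted p under 0.05 by edgeR, and the background was 0.0112% called and 6.51% with an unadjusted p under 0.05.

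CR44024 on chromosome 4 had the smallest p of the members in clk856. It was at 87.8 and 94.0 RPM at ZT2 and at 55.3 and 52.9 RPM at ZT14, the time points lying apart, whereas in nSyb it was at 65.2 and 80.6 RPM and at 95.1 and 55.9 RPM, where they overlapped. The log2 fold change of ZT14 over ZT2 in clk856 was -0.75 (SE 0.16, edgeR adjusted p = 0.631), and that by DESeq2 was -0.77 (adjusted p = 0.0367).

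CR45223, which overlaps exons of CG14322 on the opposite strand, had 9 and 0 reads at ZT2 and 132 and 73 reads at ZT14 in clk856. In nSyb it had 261 and 237 reads at ZT2 and 525 and 167 at ZT14. The clk856 time points lay apart and the nSyb ones overlapped (edgeR adjusted p in clk856 = 0.690, DESeq2 adjusted p = 0.0317). With a library at 0 the fitted fold change gives no size, and it ran from 3.76 to 9.53 on the log2 scale over the alternatives. The difference of the time effects was not called (edgeR adjusted p = 0.760).

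CR42549 was at 52.6 and 49.6 RPM at ZT2 and at 33.2 and 30.7 RPM at ZT14 in clk856 (log2 fold change -0.68, SE 0.20, edgeR adjusted p = 0.686). In nSyb the smallest p values belonged to the antisense RNA CR43464, with no read at ZT2 and 17 and 22 reads at ZT14 (edgeR adjusted p = 1.0), and to the antisense RNA CR42254 and CR44832 (log2 fold changes of 1.13 and -2.28, SE 0.56 and 1.15). For the difference of the time effects they belonged to CR43464, to CR45962, which shares exon bases with Ten-m on the same strand, and to CR33945, none past the threshold (edgeR adjusted p of 0.746 to 0.754). All of CR43464, CR45962 and CR33945 had a library at 0 in nSyb, so that their fitted differences give no size. The abundant members did not pass either: between ZT14 and ZT2 the log2 fold change of Hsromega was -0.05 (SE 0.15) in clk856 and -0.12 (SE 0.08) in nSyb, and that of noe was -0.26 (SE 0.16) and 0.10 (SE 0.13).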

How the data were processed

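The authors aligned the reads to dm6 with STAR, removed PCR duplicates with Picard and deposited for each library the raw read count per gene, with RPM and RPKM. The counting program, its strand setting and the annotation are not given in the sources used here. The RPM values were deposited by the authors and sum to 530747 to 544937 per library over all rows, those that name no gene included. The deposited RPKM values were not used, since 1 member has a deposited length above 0. Rows that name no gene (5) were left out. Reads outside genes were 5.53% to 8.94% and ambiguous reads 5.67% to 6.10% of a library.

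Counts were tested with edgeR 4.0.16 (R 4.3.3), TMM factors, filterByExpr with a minimum count of 10 and the quasi-likelihood test, p-values being adjusted by Benjamini-Hochberg over all genes tested: clk856 against nSyb (4 against 4), ZT14 against ZT2 within each genotype (2 against 2) and the difference of the time effects. The tests were tried on simulated data. Alternatives were DESeq2 1.42.0, library size scaling, no filter, time as a covariate, each time point alone, a replicate block, each library left out, members without exon overlap, and minimums of 10 and 50 reads. RPM are given as mean ± SD of 4 libraries. Positions come from Ensembl BDGP6.54 release 115 of dm6 (134 members matched by symbol, 2 by an older symbol). No sequence was printed, no genome having been used here.

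The members and gene lists were chosen with earlier results of these data known. Named members are those with a proper name, the 10 most abundant in each genotype, all those called between genotypes (up to 8 in each direction), the 6 on each side that differed most among members reached in 1 genotype, in log2(RPM + 1), the smallest p values of comparisons with no call, those at the edge of the minimum, and their coding neighbours.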

Additional observations from a re-analysis of the deposited data

Results flagged for a closer look

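In 13 cases a library of a named member stood far from the other 3 of its genotype by Dixon's criterion, which flags about 1 in 20 groups by chance. Over the 72 members reached in both genotypes it flagged 3 (4.17%) in clk856 and 9 (12.5%) in nSyb.

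In nSyb, ZT14 replicate 1 was the library that stood apart for CR45659 (13.57 RPM, others 1.1 to 2.16), CR45962 (7.24 RPM, others 0.0 to 0.49), CR43481 (2.79 RPM, others 0.0 to 0.05) and CR45758 (80.81 RPM, others 58.19 to 60.75). ZT2 replicate 1 stood apart for CR44832 (63.55 RPM, others 3.18 to 11.41) and CR33945 (8.06 RPM, others 0.0 to 0.06), and ZT2 replicate 2 was low for CR42862 (817.32 RPM, others 923.8 to 933.91).

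In clk856, ZT14 replicate 1 stood above the others for CR30055 (26.66 RPM, others 24.22 to 24.62) and CR45962 (6.91 RPM, others 2.47 to 3.09), ZT2 replicate 2 for CR45659 (7.18 RPM, others 1.57 to 2.27) and CR45621 (1.1 RPM, others 0.0 to 0.07), ZT2 replicate 1 for CR45531 (1.4 RPM, others 0.0 to 0.07) and ZT14 replicate 2 for CR44291 (0.73 RPM, others 0.0 to 0.07).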

How the results depend on the processing

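The 11 members called between genotypes became 17 with DESeq2 (4 higher and 13 lower, with 27.3% of all genes called) and 14 with library size scaling (18.8% of all genes), both including the 11, and 7 to 11 when 1 library was left out (11.7% to 16.9% of all genes), with 2 to 4 higher and 5 to 8 lower. The 7 came without clk856 ZT14 replicate 2. Without nSyb ZT2 replicate 1 there were 11 calls, of which 8 were among the main 11. Without nSyb ZT2 replicate 2 there were 10, of which 9 were among them. At ZT2 alone 0 were called (0 higher, 0 lower; 10 with an unadjusted p under 0.05 by edgeR), at ZT14 alone 1 (0 higher, 1 lower). Among the 44 members without a shared exon base 6 were called by edgeR, against 15.3% of the 72 members and 17.0% of all genes tested. Library size scaling moved the median of all genes from -0.01 to -0.14 and that of the 72 members from -0.44 to -0.57. Time calls in clk856 went from 0 to 2 with DESeq2 (1.04% of all genes). Calls of the difference of the time effects went from 0 to 1 without the filter, where the share of all genes is not given here. The member was CR44832, at a log2 value of 3.21 in both fits. Its edgeR adjusted p was 0.783 with the filter and 2.9e-15 without it. A minimum of 50 reads left 80 members and a minimum of 10 gave 198. The cause of these changes was not tested beyond the fewer libraries or genes tested.

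Same-numbered libraries did not deviate together (correlations of -0.0262 to 0.0314), so the numbers were not taken as pairs. With the replicate block 10 members were called between genotypes, all among the 11, against 16.3% of all genes tested. In the time comparisons 0 members were called with the block, where the share of all genes is not given here.

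Reversed log2 values concerned members that were not called or comparisons without a call. For CR44024 the genotype difference was -0.0965 with library size scaling, -0.0166 with time as a covariate, -0.4054 at ZT14 alone and -0.1175 to 0.1793 with 1 library left out, and its time difference in nSyb was -0.0058 with the block and -0.4085 to 0.3866 with 1 library left out. CR45659 turned to 1.4388 between genotypes at ZT2 alone and ran from -1.1977 to 1.1676 with 1 library left out. CR42549 turned to 0.0283 between genotypes at ZT2 alone and ran from -0.3347 to 0.0896 in time in nSyb. With 1 library left out, the time difference in clk856 ran from -1.7922 to 1.7371 for CR42254, -0.2674 to 2.3243 for CR44832 and -0.2358 to 1.2807 for CR45962, that in nSyb from -0.6067 to 1.1315 for CR45223, and the difference of the time effects of CR42254 from -2.9254 to 0.6045.

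With 2 libraries per time point, a time difference may go unseen. The spread of 0.824 in nSyb was taken over all its libraries with the time points pooled, so it includes any time difference.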
